A study of Mus musculus with 84 samples.

Results

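The genes described here are 10 components of the mammalian circadian clock, Arntl, Npas2, Per1, Per2, Per3, Cry1, Nr1d1, Nr1d2, Dbp and Ciart, followed in the liver and the epididymal white adipose tissue (eWAT) of mice with diet-induced obesity. They were chosen by gene symbol, through the Ensembl identifiers of the deposited tables, and are 10 of 48794 gene rows. Each tissue gave 42 libraries, 6 per group. For 30 days the mice were injected under the skin daily with vehicle, with BI 456906 (groups of 3, 10, 20 and 30 nmol/kg) or with semaglutide (groups of 20 and 100 nmol/kg), which made 7 groups. BI 456906 is an acylated peptide that activates the glucagon receptor and the GLP-1 receptor, and semaglutide activates the GLP-1 receptor alone. All groups, vehicle included, were male C57BL/6J mice on a 60% high-fat diet, housed singly and 22 weeks old at the start. The sources used here do not give the clock time of tissue collection, nor whether all mice were collected at the same time after the last dose, so a treatment effect and a difference in collection time cannot be told apart. They also do not say which liver and eWAT libraries came from the same mouse.

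The circadian clock is a feedback loop of transcription that runs in nearly every cell. The activators BMAL1, which is encoded by Arntl, and CLOCK or its relative NPAS2 bind E-box sequences and switch on the Per and Cry genes, whose proteins return to the nucleus and block the activators. A further arm is formed by the nuclear receptors REV-ERB alpha and beta, encoded by Nr1d1 and Nr1d2, which repress Arntl and Npas2 through ROR response elements. Dbp is an E-box target whose protein drives output genes through D-boxes, and the product of Ciart, also called Chrono, is a repressor of the activators. In liver and fat the phase of the loop follows feeding time, temperature and hormones, and Per1 also responds directly to cAMP signalling and to glucocorticoids. Over the day, transcripts of Arntl and Npas2 peak nearly opposite to those of Nr1d1 and Dbp.

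The promoters below are examples. Per1, Cry1 and Ciart passed the test in both tissues for BI 456906 at 30 nmol/kg and their windows hold an E-box, and the window of Per3 holds the D-box. Dbp also passed in both tissues at this dose, and its window, which holds none of the motifs searched, is not printed because much of it lies in a transcribed exon. They are the 250 bases before the RefSeq start on GRCm38.p6, 5′ to 3′ on the strand of the gene, with motif matches in capitals. RefSeq promoters matched 9 of the 10 genes, with 11 entries. The windows of Arntl, Npas2 and Nr1d1, and a further window of Per1, also hold none of the motifs searched and are not printed. The printed Per1 window is chr11:69098699-69098948 on the plus strand. It lies within the span of the GENCODE M21 gene and ends at the first base of an exon of a coding transcript.
Per1: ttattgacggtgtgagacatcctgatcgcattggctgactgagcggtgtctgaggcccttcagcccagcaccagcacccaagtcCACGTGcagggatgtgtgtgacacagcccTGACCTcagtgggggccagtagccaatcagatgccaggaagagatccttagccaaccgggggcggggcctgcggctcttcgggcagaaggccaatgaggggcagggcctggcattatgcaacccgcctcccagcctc
The Cry1 window is chr10:85185055-85185304 and the Ciart window chr3:95882229-95882478, both on the minus strand, and their last bases run into the start of the GENCODE gene.
Cry1: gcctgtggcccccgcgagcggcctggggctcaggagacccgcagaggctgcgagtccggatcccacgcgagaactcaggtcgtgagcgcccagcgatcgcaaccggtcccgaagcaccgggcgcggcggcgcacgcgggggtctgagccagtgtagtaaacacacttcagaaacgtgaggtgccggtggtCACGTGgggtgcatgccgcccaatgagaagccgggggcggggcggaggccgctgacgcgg
Ciart: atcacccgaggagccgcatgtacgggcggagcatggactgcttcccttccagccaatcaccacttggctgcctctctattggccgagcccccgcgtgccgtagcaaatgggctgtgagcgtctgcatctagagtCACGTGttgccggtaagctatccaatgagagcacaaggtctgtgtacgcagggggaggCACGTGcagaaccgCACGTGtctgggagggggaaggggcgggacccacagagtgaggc
The Per3 window is chr4:151044666-151044915 on the minus strand.
Per3: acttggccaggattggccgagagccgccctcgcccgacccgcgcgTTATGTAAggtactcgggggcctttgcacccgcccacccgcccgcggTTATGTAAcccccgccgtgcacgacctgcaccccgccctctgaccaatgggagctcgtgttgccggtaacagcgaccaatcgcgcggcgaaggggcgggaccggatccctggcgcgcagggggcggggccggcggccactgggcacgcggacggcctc
The motifs were searched on both strands. The E-box CACGTG was found 3 times before Ciart, at 116, 58 and 44 bases from the start, and 1 time each before Per1, at 166 bases, and Cry1, at 60 bases. It occurs in 6.02% of the 32851 promoters of the same length. The core ROR motif AGGTCA, found in 14.02% of promoters, was present before Per1 on the opposite strand at 137 bases and before Nr1d2 at 77 bases. The D-box, searched as TTATGTAA or TTACGTAA and found in 0.931% of promoters, stood before Per3 at 205 and 158 bases. The cAMP response element TGACGTCA, found in 1.55% of promoters, was in none of the windows of these genes. None of these matches overlapped another. A match describes the letters of the window and not a site in use.

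Reads per library, recovered from the deposited values, ranged from 21676902 to 53869104 in liver and from 37573004 to 53996914 in eWAT. All 10 genes passed the filter on low values in both tissues, among 15964 genes tested in liver and 18536 in eWAT. The fewest reads in a library were 29 for Ciart in liver and 49 for Ciart in eWAT. The defining markers were present in each labelled tissue. Alb was 43240 to 75640 TPM in liver, where Adipoq did not exceed 0.55 TPM, and Adipoq was 740 to 3169 TPM in eWAT. Of the 4 epididymis markers in eWAT, Lcn5, Lcn8 and Crisp1 did not exceed 0.15 TPM, and Adam7 had a median of 0 and reached 4.70 TPM. In bulk tissue a lower level can come from fewer cells of a type or from less RNA per cell, and these cannot be told apart.

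In liver, BI 456906 at 30 nmol/kg was accompanied by more Per1, Ciart, Cry1, Nr1d2 and Arntl and by less Dbp, while Npas2, Per2, Per3 and Nr1d1 did not pass. A gene passed when its false discovery rate (FDR) by limma/voom, over all genes tested in the tissue, was at most 0.05. At this dose 6 of the 10 genes passed, where 58.8% of all liver genes did, so the count alone does not set the clock apart from the rest of the transcriptome. The median fitted log2 change was 0.53 over the 10 genes and −0.03 over all genes. With the study's own threshold, which adds a log2 fold change of at least 1 in size, 3 of the 10 were called, Per1, Ciart and Dbp, against 12.9% of all genes. The 6 values did not overlap those of vehicle for 5 of the 10 genes, against 29.4% of all genes. At the other doses the passing genes were 3 at 3 nmol/kg (13.4% of all genes), 6 at 10 nmol/kg (37.5%) and 5 at 20 nmol/kg (45.9%) of BI 456906, and 7 at 20 nmol/kg (46.5%) and 5 at 100 nmol/kg (48.2%) of semaglutide. Of the 60 comparisons with vehicle in liver, 32 passed.

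In eWAT the leading changes were a fall of Nr1d1 and Dbp and a rise of Per1, with Arntl and Npas2 passing upward under semaglutide. For BI 456906 at 30 nmol/kg 5 of the 10 genes passed, where 23.9% of all eWAT genes did. The median fitted log2 change was 0.26 over the 10 and −0.03 over all genes. The study's threshold called 1 gene, Nr1d1, against 6.34% of all genes, and the values of 2 genes did not overlap those of vehicle, against 6.31% of all genes. Semaglutide at 20 nmol/kg gave 6 passing genes (6.33% of all genes) and at 100 nmol/kg 8 (14.9%), while BI 456906 at 20 nmol/kg gave 2 (4.27%). At 3 and 10 nmol/kg of BI 456906 0 of the 10 genes passed in limma/voom (0.00539% and 0.513% of all genes), with 2 and 3 at an unadjusted p under 0.05 and 0 in edgeR and in DESeq2. In total 21 of 60 comparisons with vehicle passed in eWAT.

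**Figure D1:**
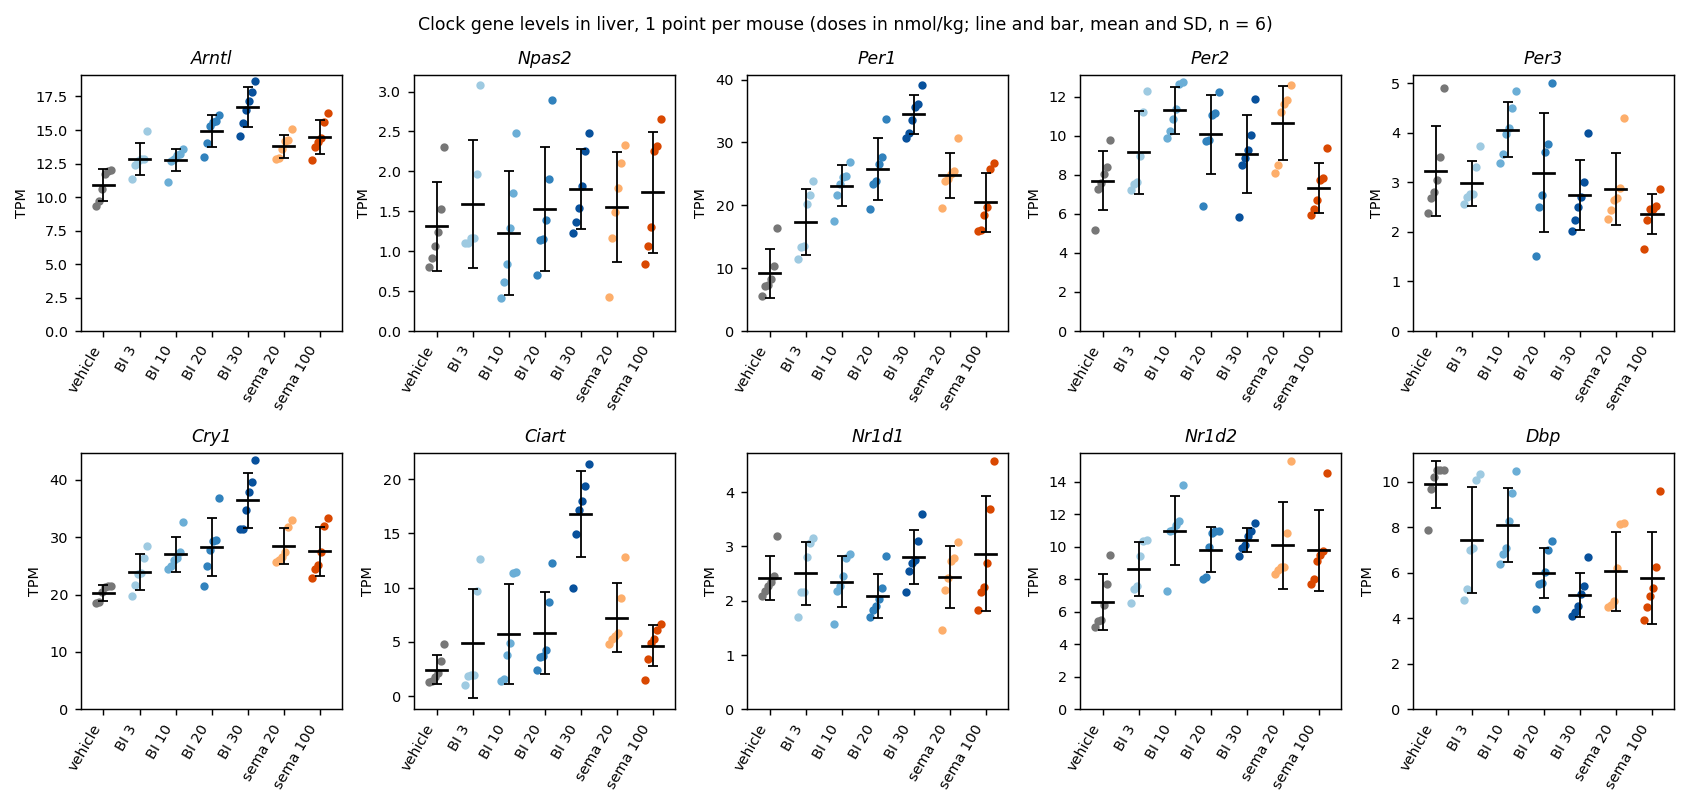
TPM of the 10 clock genes in liver, with a panel per gene, a point per library and 6 libraries in each of the 7 groups. Per1 in vehicle libraries lay between 5.52 and 16.4 TPM and at 30 nmol/kg of BI 456906 between 30.8 and 39.1 TPM.

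Arntl, the non-redundant activator of the loop, was a gene of small spread in liver. Its lowest, median and highest liver levels were 9.30, 11.1 and 12.04 TPM with vehicle, 11.3, 12.8 and 14.96 at 3 nmol/kg, 11.1, 12.98 and 13.6 at 10 nmol/kg, 12.97, 15.4 and 16.1 at 20 nmol/kg and 14.6, 16.8 and 18.7 TPM at 30 nmol/kg of BI 456906. With semaglutide they were 12.9, 13.9 and 15.1 TPM at 20 nmol/kg and 12.8, 14.3 and 16.3 TPM at 100 nmol/kg. Every library at 20 and 30 nmol/kg of BI 456906 and at both semaglutide doses was above every vehicle library. On the log2 scale Arntl was higher by 0.56 (SE 0.07, FDR 2.72e-09) at 30 nmol/kg of BI 456906, 0.38 (FDR 1e-05) at 20 nmol/kg, 0.28 (FDR 0.000534) with semaglutide at 20 nmol/kg and 0.36 (FDR 2.65e-05) at 100 nmol/kg. At 3 nmol/kg it was 0.22 (FDR 0.0237), a call lost without any of libraries 43, 48, 51 and 53 (FDR 0.0526 to 0.111). At 10 nmol/kg it was 0.16 (FDR 0.057).

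Arntl in eWAT passed only in the semaglutide comparisons. The vehicle libraries held 6.16, 9 and 9.82 TPM, semaglutide at 20 nmol/kg 9.95, 10.9 and 14.6 TPM and semaglutide at 100 nmol/kg 9.72, 11.995 and 13.8 TPM. All libraries at 20 nmol/kg, and all but the lowest at 100 nmol/kg, were above the highest vehicle library. Its fitted log2 change was 0.44 (SE 0.14, FDR 0.0478) at 20 nmol/kg, lost without library 5, 6, 34, 35 or 36 (FDR 0.0599 to 0.11), and 0.52 (SE 0.14, FDR 0.00971) at 100 nmol/kg. With sample quality weights the value at 20 nmol/kg was 0.32 (FDR 0.135), and with the summed adipocyte markers as a covariate that at 100 nmol/kg was 0.31 (FDR 0.0602). With the 4 doses of BI 456906 the medians were 9.13 to 9.99 TPM and the log2 fold changes 0.10 to 0.23, which did not pass. Arntl in eWAT did not pass in limma/voom between the compounds.

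Npas2, the alternative partner of BMAL1, was low and variable in liver. In eWAT its fitted change was upward in all 6 comparisons and passed in limma/voom only under semaglutide. Its liver range over all 42 libraries was 0.42 to 3.08 TPM and the groups overlapped throughout. At 30 nmol/kg of BI 456906 its liver fitted log2 change was 0.49 (SE 0.35, FDR 0.235). It passed in 0 of 6 liver comparisons by limma/voom, edgeR and DESeq2, with 0 at an unadjusted p under 0.05. In eWAT the lowest, median and highest levels were 1.09, 1.81 and 3.89 TPM with vehicle, 3.02, 3.75 and 5.56 TPM with semaglutide at 20 nmol/kg and 1.97, 4.08 and 4.96 TPM at 100 nmol/kg. The groups overlapped. The fitted log2 changes were 1.07 (SE 0.29, FDR 0.0186) and 1.05 (SE 0.29, FDR 0.0118). With BI 456906 the eWAT fitted log2 changes were 0.88, 0.87, 0.92 and 0.77 at 3, 10, 20 and 30 nmol/kg, with FDR of 0.377, 0.149, 0.0583 and 0.0529, none of which passed. Of the 6 eWAT comparisons Npas2 passed in 2 by limma/voom, 2 by edgeR and 4 by DESeq2, with 6 at an unadjusted p under 0.05.

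Per1, a repressor of the loop that is also an immediate target of cAMP and glucocorticoid signalling, had the largest passing rise of the 10 genes in 4 of the 6 liver comparisons. The lowest, median and highest liver levels were 5.52, 7.79 and 16.4 TPM with vehicle, 11.4, 16.8 and 23.8 at 3 nmol/kg, 17.6, 24.015 and 26.9 at 10 nmol/kg, 19.4, 25.2 and 33.8 at 20 nmol/kg and 30.8, 34.7 and 39.1 TPM at 30 nmol/kg of BI 456906. Semaglutide gave 19.6, 24.6 and 30.7 TPM at 20 nmol/kg and 16.0, 19.1 and 26.8 TPM at 100 nmol/kg. From 10 nmol/kg of BI 456906 upward, and with semaglutide at 20 nmol/kg, every treated library was above every vehicle library. With semaglutide at 100 nmol/kg the lowest treated library was just below the highest vehicle library. The fitted log2 changes were 0.89, 1.28, 1.44 and 1.89 at the 4 doses of BI 456906 and 1.41 and 1.12 at the 2 of semaglutide, each with an SE of 0.18 to 0.19. The FDR was 0.00288 at 3 nmol/kg and 1.13e-10 at 30 nmol/kg of BI 456906, and 5.47e-06 for semaglutide at 100 nmol/kg. All 6 calls remained without any 1 library.

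Per1 had higher TPM in eWAT than in liver, with the tissues normalized in separate tables, and rose there as well. The eWAT levels were 27.8, 31.8 and 50.2 TPM with vehicle, 28.5, 43.7 and 66.4 at 3 nmol/kg, 40.5, 45.7 and 51.3 at 10 nmol/kg, 47.1, 57.1 and 79.5 at 20 nmol/kg and 55.8, 73.9 and 77.5 TPM at 30 nmol/kg of BI 456906. Semaglutide gave 48.2, 64.6 and 68.1 TPM at 20 nmol/kg and 34.6, 46.3 and 74.5 TPM at 100 nmol/kg. Only the group at 30 nmol/kg of BI 456906 was wholly above vehicle. Per1 in eWAT rose by 0.98 log2 units (SE 0.16, FDR 6.3e-05) at 30 nmol/kg and 0.74 (FDR 0.00647) at 20 nmol/kg of BI 456906, and 0.77 (FDR 0.00276) with semaglutide at 20 nmol/kg. At 100 nmol/kg of semaglutide it was 0.47 (FDR 0.0376), a call lost without library 1, 2, 3, 5, 37, 38, 39 or 41 (FDR 0.0558 to 0.119).

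Per2 and Per3, the paralogs of Per1, changed in few comparisons. Liver Per2 spanned 5.17 to 12.8 TPM over the 42 libraries. It rose at 10 nmol/kg of BI 456906, where the fitted log2 change was 0.49 (FDR 0.0077) and every library (9.91 to 12.8 TPM) was above the highest of vehicle at 9.78 TPM. It also passed with semaglutide at 20 nmol/kg (log2 fold change 0.37, FDR 0.0378), lost without library 45, 46, 48, 74, 76 or 77 (FDR 0.0565 to 0.0997). At 30 nmol/kg of BI 456906 liver Per2 was 5.84, 9.08 and 11.9 TPM against 5.17, 7.81 and 9.78 TPM with vehicle, a log2 fold change of 0.18 (FDR 0.288). In eWAT Per2 passed in 0 of 6 comparisons by limma/voom and edgeR, in 1 by DESeq2 and in 1 at an unadjusted p under 0.05.

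Per3 in liver rose at 10 nmol/kg of BI 456906, from 2.39, 2.93 and 4.90 TPM with vehicle to 3.39, 4.04 and 4.84 TPM. The groups overlapped. Its log2 change was 0.51 (FDR 0.0231), lost without library 45 (FDR 0.0808) or 48 (FDR 0.0552). In eWAT it fell with semaglutide at 100 nmol/kg, from 15.7, 17.5 and 24.4 TPM to 8.28, 13.1 and 17.5 TPM. On the log2 scale Per3 was at −0.57 (SE 0.20, FDR 0.0472). This call was kept in 10 of the 42 fits that left out 1 library, and the highest FDR was 0.144. With the summed adipocyte markers as a covariate the value was −0.14 (FDR 0.317).

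Cry1, whose protein is the main transcriptional repressor of the loop, rose in both tissues. Its liver levels were 18.6, 20.9 and 21.6 TPM with vehicle, 24.4, 26.2 and 32.7 at 10 nmol/kg, 21.5, 28.5 and 36.8 at 20 nmol/kg and 31.4, 36.3 and 43.5 TPM at 30 nmol/kg of BI 456906. Semaglutide gave 25.7, 27.03 and 33.1 TPM at 20 nmol/kg and 22.9, 26.3 and 33.4 TPM at 100 nmol/kg. Apart from the lowest library at 20 nmol/kg of BI 456906, all of these treated libraries were above all vehicle libraries. For Cry1 in liver the log2 change was 0.75 (SE 0.10, FDR 9.51e-08) at 30 nmol/kg, 0.35 (FDR 0.0048) at 20 nmol/kg, and 0.38 (FDR 0.00248) and 0.35 (FDR 0.00543) with semaglutide at 20 and 100 nmol/kg. At 10 nmol/kg it was 0.30 (FDR 0.0207), and 0.24 (FDR 0.0678) without library 60. At 3 nmol/kg it was 0.17 (FDR 0.263).

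In eWAT, Cry1 was 14.9, 15.2 and 16.4 TPM in vehicle libraries and 18.4, 20.9 and 22.9 TPM at 30 nmol/kg of BI 456906, with no overlap. The change in eWAT Cry1 was 0.40 (SE 0.08, FDR 0.000912). With semaglutide at 20 nmol/kg (17.8, 19.3 and 20.98 TPM) it was 0.30 (FDR 0.0302), lost without library 3, 32 or 34 (FDR 0.0515 to 0.0693). With semaglutide at 100 nmol/kg (13.2, 19.7 and 22.7 TPM) it was 0.29 (FDR 0.0204), lost without library 39 (FDR 0.0695) or 41 (FDR 0.0659).

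Ciart showed the largest fold change of the 10 genes in liver at 30 nmol/kg of BI 456906, and the largest differences between mice of a group. The lowest, median and highest liver levels were 1.27, 1.99 and 4.82 TPM with vehicle, 0.99, 1.98 and 12.7 at 3 nmol/kg, 1.44, 4.34 and 11.4 at 10 nmol/kg, 2.43, 3.995 and 12.3 at 20 nmol/kg and 10.0, 17.6 and 21.4 TPM at 30 nmol/kg of BI 456906. Semaglutide gave 4.79, 5.67 and 12.9 TPM at 20 nmol/kg and 1.54, 5.12 and 6.62 TPM at 100 nmol/kg. The group at 30 nmol/kg was wholly above vehicle, and the groups at the 3 lower doses of BI 456906 each held libraries within the vehicle range and libraries well above it. The liver change of Ciart was 3.04 (SE 0.55, FDR 1.23e-05) at 30 nmol/kg of BI 456906 and 1.73 (SE 0.59, FDR 0.0159) with semaglutide at 20 nmol/kg. The other liver comparisons gave 0.56 to 1.35 and did not pass. In eWAT, Ciart was 1.78, 2.31 and 2.82 TPM in vehicle libraries and 1.63, 3.02 and 3.33 TPM at 30 nmol/kg of BI 456906. These overlapped, and the fitted log2 change was 0.43 (FDR 0.036), lost without library 2 (FDR 0.0745) or 29 (FDR 0.0685).

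**Figure D2:**
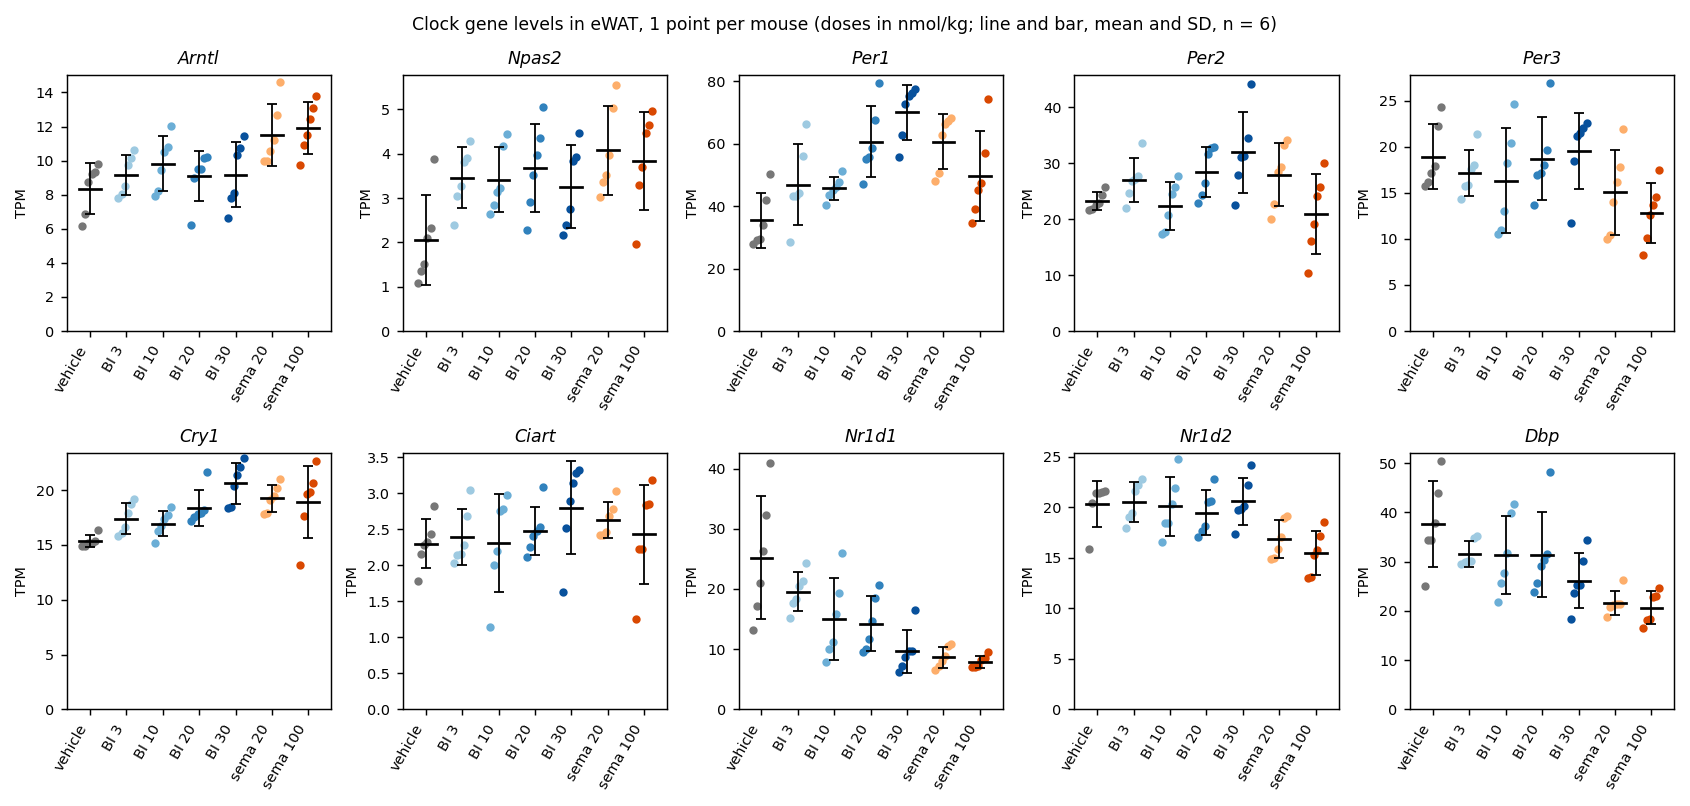
TPM of the 10 clock genes in eWAT, with a panel per gene, a point per library and 6 libraries in each of the 7 groups. Nr1d1 lay between 13.3 and 40.9 TPM with vehicle and between 6.99 and 9.53 TPM with semaglutide at 100 nmol/kg.

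Nr1d1, the haem-binding repressor REV-ERB alpha, had the largest passing fold change of the 10 genes in eWAT and did not pass in liver. The lowest, median and highest eWAT levels were 13.3, 23.7 and 40.9 TPM with vehicle, 15.2, 19.4 and 24.3 at 3 nmol/kg, 7.84, 13.5 and 25.97 at 10 nmol/kg, 9.56, 13.2 and 20.7 at 20 nmol/kg and 6.19, 9.16 and 16.4 TPM at 30 nmol/kg of BI 456906. Semaglutide gave 6.52, 8.46 and 10.9 TPM at 20 nmol/kg and 6.99, 7.69 and 9.53 TPM at 100 nmol/kg. Every semaglutide library was below every vehicle library, and at 30 nmol/kg of BI 456906 the highest treated library was above the lowest of vehicle. On the log2 scale the change of Nr1d1 was −1.47 (SE 0.25, FDR 0.000472) and −1.57 (SE 0.26, FDR 8.07e-05) with semaglutide at 20 and 100 nmol/kg, while 30 nmol/kg of BI 456906 gave −1.37 (SE 0.25, FDR 0.000161). At 20 nmol/kg it was −0.82 (FDR 0.0345), lost without library 2, 5, 6, 19, 21, 23 or 24 (FDR 0.0589 to 0.119). At 10 nmol/kg it was −0.73 (FDR 0.13).

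In liver Nr1d1 was 1.46 to 4.57 TPM over all 42 libraries, and the group medians were 1.97 to 2.72 TPM. The log2 fold changes ran from −0.32 to 0.16. It passed in 0 of 6 comparisons by limma/voom, edgeR and DESeq2, with 0 at an unadjusted p under 0.05.

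Nr1d2, which encodes REV-ERB beta, rose in liver. Its levels there were 5.09, 5.96 and 9.51 TPM with vehicle, 7.27, 11.2 and 13.8 at 10 nmol/kg, 7.99, 10.4 and 11.0 at 20 nmol/kg and 9.42, 10.4 and 11.4 TPM at 30 nmol/kg of BI 456906. The highest vehicle library overlapped each of these groups. These gave log2 changes of 0.58 (FDR 0.00275), 0.45 (FDR 0.0151) and 0.57 (SE 0.15, FDR 0.0018). With semaglutide it was 0.49 (FDR 0.00863) at 20 nmol/kg and 0.43 (FDR 0.02) at 100 nmol/kg, the latter lost without library 45 (FDR 0.056), 46 (FDR 0.0532) or 82 (FDR 0.073). In eWAT Nr1d2 fell with semaglutide at 100 nmol/kg, from 15.8, 21.4 and 21.6 TPM to 12.99, 15.5 and 18.5 TPM. The lowest vehicle library overlapped the treated group, and the fitted log2 change was −0.37 (SE 0.09, FDR 0.0076). At 20 nmol/kg of semaglutide it was −0.28 (FDR 0.0627), and with the 4 doses of BI 456906 −0.10 to 0.02.

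Dbp, the D-box activator that carries clock signals to output genes, was lower in all 6 liver comparisons. The lowest, median and highest liver levels were 7.90, 10.4 and 10.5 TPM with vehicle, 4.79, 7.04 and 10.3 at 3 nmol/kg, 6.37, 7.69 and 10.5 at 10 nmol/kg, 4.40, 5.79 and 7.40 at 20 nmol/kg and 4.12, 4.81 and 6.71 TPM at 30 nmol/kg of BI 456906. Semaglutide gave 4.51, 5.50 and 8.18 TPM at 20 nmol/kg and 3.94, 5.17 and 9.58 TPM at 100 nmol/kg. At 20 and 30 nmol/kg of BI 456906 all treated libraries were below all vehicle libraries. The fitted log2 changes were −0.57, −0.51, −0.95 and −1.20 at the 4 doses of BI 456906 and −0.90 and −0.99 at those of semaglutide. The FDR was 1.96e-07 at 30 nmol/kg. At 3 nmol/kg it was 0.0135, and without library 51 the fitted log2 change was −0.48 (FDR 0.0673). In limma on log2(TPM + 1) and log2(TPM + 0.1) Dbp did not pass at the 2 lowest doses. These fits gave −0.41 and −0.46 (FDR 0.114 and 0.119) at 3 nmol/kg, and −0.27 and −0.30 (FDR 0.229 and 0.245) at 10 nmol/kg.

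Dbp fell in eWAT as well, from a vehicle level of 25.1, 36.1 and 50.4 TPM. Semaglutide gave 18.7, 21.3 and 26.3 TPM at 20 nmol/kg, and 16.6, 20.6 and 24.7 TPM, with no overlap, at 100 nmol/kg. The eWAT change of Dbp was −0.81 (FDR 0.0029) and −0.88 (SE 0.17, FDR 0.000656). At 30 nmol/kg of BI 456906 (18.3, 25.3 and 34.3 TPM) it was −0.50 (FDR 0.0273), lost without library 2, 5, 6, 25, 26 or 30 (FDR 0.0614 to 0.129).

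**Figure D3:**
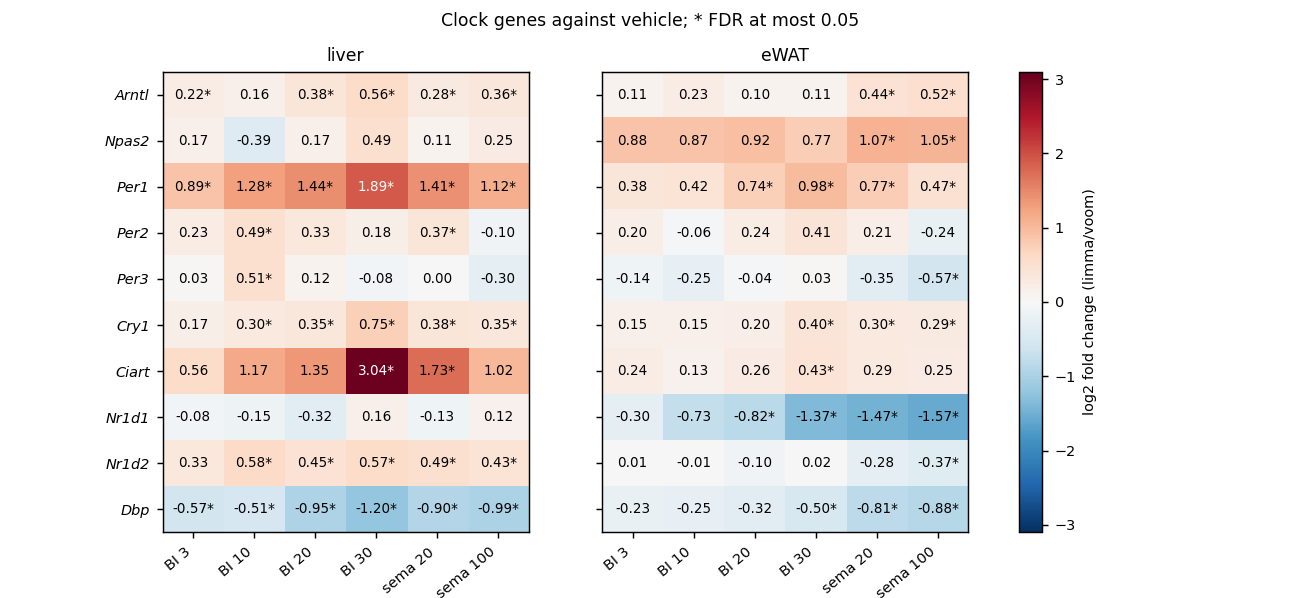
Heat map of the log2 fold change against vehicle (limma/voom) of each clock gene in liver and eWAT for the 6 treated groups. Each cell holds its value, with an asterisk where the FDR was at most 0.05. Ciart in liver reached 3.04 and Nr1d1 in eWAT −1.57.

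The relation to the dose of BI 456906 was tested as the linear slope of the group means over vehicle and the 4 doses. Such a slope can also pass for a plateau or a step. At 10, 20 and 30 nmol/kg the liver medians were 11.2, 10.4 and 10.4 TPM for Nr1d2 and 4.34, 3.995 and 17.6 TPM for Ciart. In liver 6 of the 10 genes had a slope that passed (58.9% of all genes). Per 10 nmol/kg the log2 level rose by 0.89 for Ciart, 0.51 for Per1, 0.21 for Cry1, 0.16 for Arntl and 0.14 for Nr1d2, and fell by 0.34 for Dbp. All 6 calls remained without any 1 library. In eWAT 5 of the 10 passed (29.5% of all genes). The slopes were 0.29 for Per1, 0.11 for Cry1, 0.11 for Ciart, −0.13 for Dbp and −0.41 for Nr1d1. The Dbp slope (FDR 0.0338) was kept in 4 of the 42 fits without 1 library, with a highest FDR of 0.158, and the Ciart slope (FDR 0.048) was lost without library 2 (FDR 0.062), 26 (FDR 0.0526) or 29 (FDR 0.0836).

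The 2 compounds were compared over 3 pairs of groups, of which BI 456906 and semaglutide at 20 nmol/kg had matched doses. At this dose 0 of the 10 genes differed in liver by limma/voom, edgeR and DESeq2 (2.42% of all genes), with 0 at an unadjusted p under 0.05. The difference, BI 456906 minus semaglutide on the log2 scale, was 0.02 for Per1 (95% interval −0.35 to 0.40), −0.03 for Cry1 (−0.24 to 0.18), 0.10 for Arntl (−0.04 to 0.23), −0.05 for Dbp (−0.42 to 0.32) and −0.38 for Ciart (−1.35 to 0.59). The intervals of Per1 and Cry1 lie within the size of their response at 30 nmol/kg, and that of Ciart is wide, reaching beyond a log2 unit.

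The other pairs had unequal doses. In liver BI 456906 at 30 nmol/kg was above semaglutide at 20 nmol/kg for 3 genes (13.6% of all genes), Arntl by 0.28 (FDR 0.0028), Cry1 by 0.37 (FDR 0.0148) and Ciart by 1.31 (FDR 0.0254). The Ciart call was lost without library 69, 75, 77 or 78 (FDR 0.0547 to 0.0695). It also did not pass in edgeR (FDR 0.0997), in DESeq2 (FDR 0.092), with no filter (FDR 0.059) or on log2 TPM (FDR 0.0728 and 0.117). BI 456906 at 30 nmol/kg was above semaglutide at 100 nmol/kg for 4 genes (9.75% of all genes), Per1 by 0.77 (FDR 0.00552), Ciart by 2.02 (FDR 0.00307), Cry1 by 0.40 (FDR 0.0096) and Arntl by 0.21 (FDR 0.0336). The Arntl call was lost without library 67, 68, 69, 71, 79, 80 or 82 (FDR 0.0511 to 0.114). It also did not pass with library size alone (FDR 0.0545), with no filter (FDR 0.0742) or on log2 TPM (FDR 0.069 and 0.0708).

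In eWAT 0 of the 10 genes passed in any of the 3 pairs by limma/voom, where 0%, 0% and 0.0108% of all genes did. At an unadjusted p under 0.05 there were 3, 2 and 6 genes. DESeq2 called 0, 0 and 3 and edgeR 0, 0 and 1. At the matched dose Nr1d1 was 0.65 higher with BI 456906 on the log2 scale (95% interval 0.12 to 1.17, FDR 0.983).

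**Figure D4:**
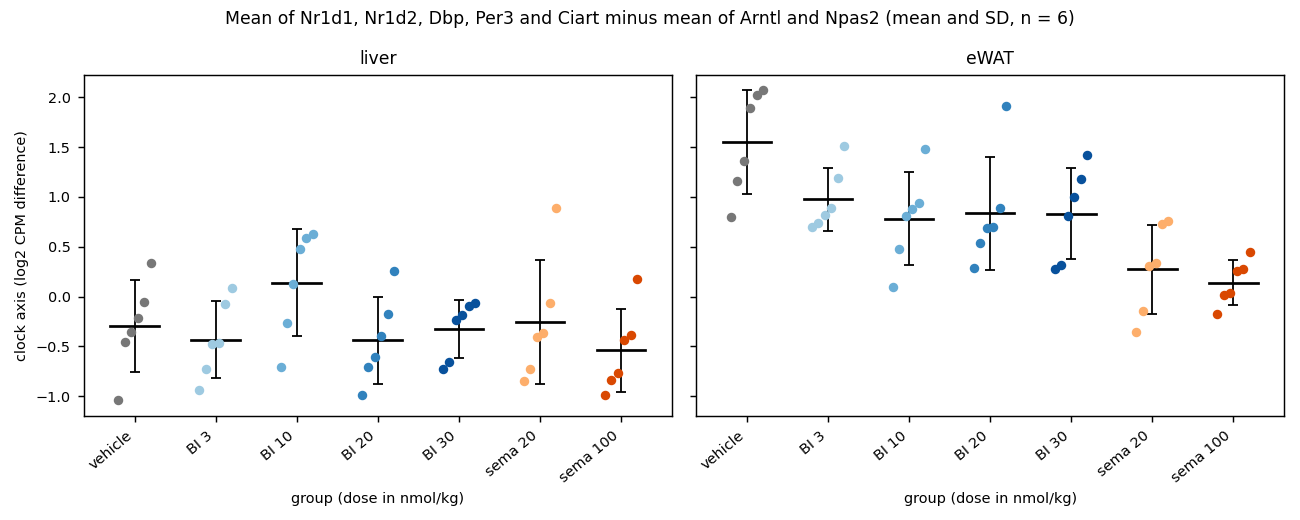
Clock axis of every library in liver and eWAT by group, in log2 CPM units, with the mean and SD of each group. In eWAT the mean was 1.55 with vehicle and 0.14 with semaglutide at 100 nmol/kg, and in liver the group means lay between −0.54 and 0.14.

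The response differed between the tissues for several genes. The difference, the eWAT effect minus the liver effect, was tested as an interaction over 15297 genes kept in both tissues. In this fit the count at each dose was near or below the share of all genes, so the counts alone do not set the clock apart. For the dose of 30 nmol/kg of BI 456906 5 of the 10 genes passed (45.9% of all genes). They were Ciart at −2.51 (FDR 0.00104), Nr1d1 at −1.42 (FDR 0.0011), Per1 at −0.80 (FDR 0.00636), Nr1d2 at −0.44 (FDR 0.0391) and Dbp at 0.81 (FDR 0.0105), all in log2 units. With semaglutide Nr1d1 and Nr1d2 passed at both doses (31.8% and 33.9% of all genes). Nr1d1 was −1.27 (FDR 0.00727) at 20 nmol/kg and −1.64 (FDR 0.000448) at 100 nmol/kg, and Nr1d2 −0.70 (FDR 0.00181) and −0.74 (FDR 0.000924). Nr1d1 thus fell in eWAT with no passing change in liver, while Nr1d2 rose in liver at both doses and was at −0.28 and −0.37 in eWAT, of which the latter passed.

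At lower doses of BI 456906 fewer genes differed. At 3 nmol/kg 0 of the 10 passed in limma/voom, also with 0 at an unadjusted p under 0.05 (3.37% of all genes). At 10 nmol/kg 3 passed (26.7% of all genes), Npas2, Per1 and Nr1d2, and at 20 nmol/kg 2 (31.9%), Nr1d2 and Dbp. When the libraries were scaled within each tissue, which moved the median of all genes by up to 0.108, 18 of the 60 differences passed in place of 14, of which 12 were shared. For 30 nmol/kg of BI 456906 the values were then −2.62 for Ciart, −1.53 for Nr1d1, −0.91 for Per1, −0.55 for Nr1d2 and 0.71 for Dbp. The call for Dbp was then lost without library 3 (FDR 0.0548) or 27 (FDR 0.0527). Those for Npas2 at 10 nmol/kg and Dbp at 20 nmol/kg did not pass with this scaling. In limma on log2(TPM + 1) and log2(TPM + 0.1) the Dbp difference at 30 nmol/kg was 0.36 and 0.45 (FDR 0.219 and 0.143) and did not pass.

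The phase of the clock set against the treatment was described by a clock axis, the mean log2 level of Nr1d1, Nr1d2, Dbp, Per3 and Ciart minus that of Arntl and Npas2 in each library. These arms peak at different times of day. A common rise of all the genes cancels in the axis. In liver the group means lay between −0.54 and 0.14, and within vehicle the SD was 0.46. The differences from vehicle ran from −0.24 with semaglutide at 100 nmol/kg to 0.44 at 10 nmol/kg of BI 456906. In eWAT the axis was 1.55 ± 0.52 (SD, n = 6) with vehicle and lower in every treated group. It was 0.98, 0.78, 0.84 and 0.83 at the 4 doses of BI 456906, and 0.27 and 0.14 with semaglutide. With BI 456906 neither Arntl nor Npas2 passed in eWAT at any dose, and Npas2 had the larger fitted rise. Of the other arm Nr1d1 passed downward at 20 and 30 nmol/kg and Dbp at 30 nmol/kg, where Ciart passed upward. The lower axis with BI 456906 was thus not a shift of all its genes. At 100 nmol/kg of semaglutide the libraries lay between −0.18 and 0.45, below the lowest of vehicle at 0.80. At 20 nmol/kg of semaglutide the highest library was at 0.76. In eWAT under semaglutide Nr1d1 and Dbp fell while Arntl and Npas2 rose. Per3 and Nr1d2 passed downward only at 100 nmol/kg. Ciart did not fall, with a mean TPM of 1.14 and 1.06 times that of vehicle at 20 and 100 nmol/kg. In liver Arntl, Ciart and Nr1d2 rose together while Dbp fell. Such changes can cancel in the axis. At 30 nmol/kg of BI 456906 the liver axis was −0.03 from vehicle. There the mean TPM of Ciart was 6.83 times that of vehicle, that of Dbp 0.51 times and that of Arntl 1.54 times. A liver axis near that of vehicle thus does not mean that its genes were unchanged.

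The spread between mice was set against the spread between groups. In liver Ciart had a within-group SD of 0.99 log2 units, larger than that of 97.7% of genes, and Npas2 one of 0.67. The widest group of Ciart was 3 nmol/kg of BI 456906, where the libraries covered 4.19 log2 units. Arntl had a within-group SD of 0.11, larger than that of 16.4% of genes. The share of variance between the 7 groups was 76.4% for Per1, 72.96% for Arntl and 14.1% for Npas2 in liver, and 67.2% for Nr1d1, 56.7% for Per1 and 54.6% for Dbp in eWAT. The median over all genes was 35.9% in liver and 22.9% in eWAT.

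Clock genes also varied together between mice of the same group. Whether this variation is a difference in phase was not tested, and the r of Arntl with genes outside the set was not computed. Within groups, over 42 libraries and with group means removed, Arntl in liver correlated with Npas2 (Pearson r 0.53, permutation p 0.00046, adjusted 0.00276, Spearman rho 0.48, p 0.00212) and with Cry1 (r 0.53, p 0.00103, adjusted 0.00463, rho 0.50, p 0.00244). Without the 2 libraries farthest from the median of Arntl the values were 0.50 and 0.52. Arntl in liver was inversely related to Dbp (r −0.39, adjusted permutation p 0.0346, rho −0.36), at −0.38 without 2 libraries. Its relation to Per3 (r −0.39, adjusted permutation p 0.0396) had a rho of −0.30 with an adjusted p of 0.114 and was −0.27 without 2 libraries. With Ciart the relation was positive (r 0.36, adjusted permutation p 0.0396, rho 0.34 with an adjusted p of 0.0531), at 0.40 without 2 libraries. With Nr1d1 r was −0.04.

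In eWAT Arntl was inversely related to Per3 (r −0.72, permutation p 1e-05, the smallest that 100000 permutations can give, adjusted 0.00018, rho −0.70), to Dbp (r −0.62, adjusted permutation p 0.00081, rho −0.52) and to Nr1d1 (r −0.49, adjusted permutation p 0.0127, rho −0.48). Without 2 libraries these were −0.68, −0.54 and −0.41. Of 18 relations with Arntl, 9 in each tissue, 11 had an adjusted p of at most 0.05. Arntl thus moved opposite to Per3 and Dbp between mice given the same treatment. Ciart, which the axis groups with them, had a positive r with Arntl in eWAT as well (0.30, adjusted permutation p 0.115).

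Cell type markers moved with these genes in eWAT. The summed TPM of 5 adipocyte markers (Adipoq, Plin1, Lep, Cidec and Retn) correlated within groups with Per3 (r 0.89), Per2 (0.67), Nr1d1 (0.54), Arntl (−0.61) and the clock axis (0.63), and that of 6 macrophage markers with Per3 (−0.79), Arntl (0.62) and the axis (−0.70). Other sums moved with them too. The endothelial sum had an r of 0.82 with Per3 and −0.56 with Arntl, and the lymphocyte sum −0.74 and 0.57. The fibroblast sum had one of −0.66 with Per3 and −0.76 with Per2, while the hepatocyte sum had 0.14 with Per3. Only the adipocyte sum was held constant below. These 42 libraries share their tissue pieces and scaling, and the values are a description. The adipocyte sum was 5057, 6048 and 10570 TPM in vehicle libraries, 3840, 6767 and 7853 TPM at 30 nmol/kg of BI 456906 and 2535, 4741 and 7447 TPM with semaglutide at 100 nmol/kg. The macrophage sum was 962, 1629 and 2291 TPM with vehicle and 1810, 2277 and 2741 TPM with semaglutide at 100 nmol/kg. With the adipocyte sum held constant, the correlation of Arntl with Dbp was −0.55, with Per3 −0.49, with Nr1d1 −0.25 and with Per2 0.02. With this sum as a covariate in the test, 3 of the 26 passing comparisons in eWAT, slopes included, no longer passed. These were Arntl at 0.31 (FDR 0.0602), Npas2 at 0.76 (FDR 0.0564) and Per3 at −0.14 (FDR 0.317), each with semaglutide at 100 nmol/kg, while the falls of Nr1d1 and Dbp still passed.

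Marker sums moved in liver too. The sum of the 5 hepatocyte markers was 66430, 68690 and 79530 TPM in vehicle libraries, 84470, 91820 and 98100 TPM at 30 nmol/kg of BI 456906 and 76820, 86380 and 106500 TPM with semaglutide at 100 nmol/kg. That of 5 stellate cell and fibroblast markers was 43.8, 54.4 and 68.5 TPM in vehicle libraries and 34.6, 38.95 and 47.2 TPM at 30 nmol/kg, where 4 of the 5 fell and 1 rose. Within groups the hepatocyte sum had an r of 0.48 with Arntl and −0.45 with Dbp, and the sum of 4 endothelial markers one of −0.55 with Per1 and −0.56 with Ciart. The adipocyte sum in liver, in which Cidec was the abundant gene, had an r of −0.66 with Per3. The part of cell composition in the liver levels of the clock genes was not tested.

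Transcripts of hepatocytes were also present in eWAT. The summed TPM of 5 hepatocyte markers was 19.9, 1503 and 5623 with vehicle and 19.7, 101.6 and 956.8 at 30 nmol/kg of BI 456906. Alb in eWAT reached at most 6.66% of its median level in liver and had a median of 0.149%. Nr1d1 and Dbp had lower TPM in liver than in eWAT, and the part of these transcripts in their eWAT levels was not tested.

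**Figure D5:**
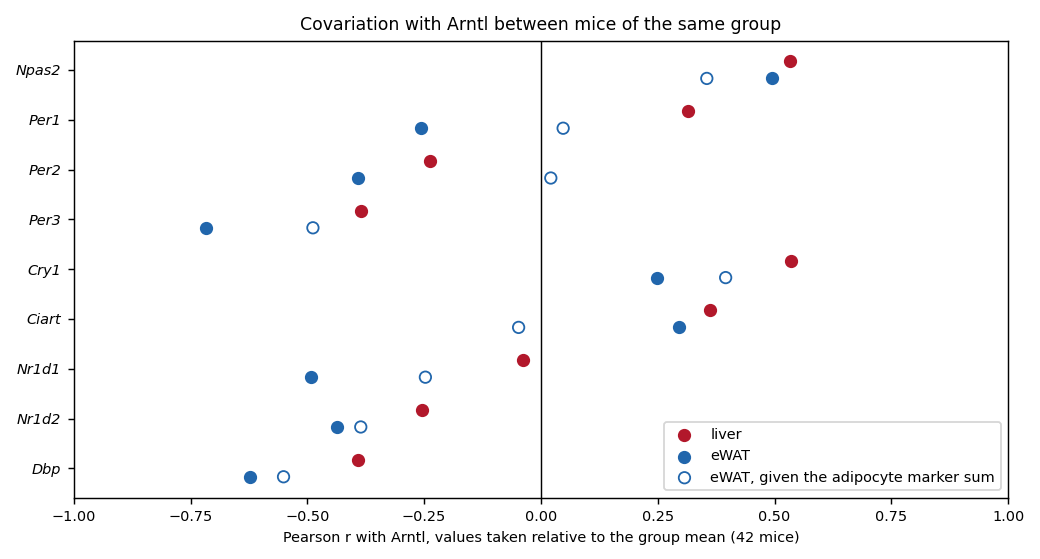
Pearson r of Arntl with each other clock gene within groups, from log2 levels with group means removed, over 42 libraries in each tissue. A filled point is the r of a gene in a tissue. Open circles give the eWAT values with the adipocyte marker sum held constant. In eWAT the correlation with Per3 was −0.72.

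Among all other genes with a mean of at least 1 TPM, those most like the clock axis within groups were found by Pearson r over the 42 libraries. In liver (11810 genes) the closest was Tef (r 0.71), a D-box factor related to Dbp, followed by Rap2a, Mfsd14b, Dnajb6 and Pias2. The most opposite were Dtx4 (r −0.68), Smo, Col4a1, Ppard and Mmp14. In eWAT (14274 genes) the closest were Gja5 (r 0.79), Fcgrt, Faap20, Clasrp and Pbxip1 and the most opposite Gclc (r −0.83), Nav2, Map3k9, Cd63-ps and Gm7204. In eWAT 34.8% of genes had an r of at least 0.5 in size and in liver 1.24%, so many genes in eWAT varied along this axis between libraries.

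Other clock genes were tested as a list of 12. At 30 nmol/kg of BI 456906 5 rose and 3 fell in liver, with a median log2 fold change of 0.06, where 58.8% of all liver genes passed. Rora, a receptor that opposes the REV-ERBs, rose by 1.11 and Clock, the partner of BMAL1, by 1.10, while the repressor Bhlhe41 fell by 0.80. In eWAT, where 23.9% of all genes passed, 4 rose and 0 fell, among them Nfil3, the repressor at D-boxes, at 0.88, Rora at 0.45 and the kinase Csnk1e at 0.24. With semaglutide at 100 nmol/kg 5 rose and 3 fell in liver (48.2% of all genes) and 2 rose in eWAT (14.9%). These counts say nothing particular to the list.

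Of 11 output genes of the clock 6 rose and 2 fell in each tissue at 30 nmol/kg of BI 456906, against 58.8% of all genes passing in liver and 23.9% in eWAT. In liver Lpin1, a phosphatidate phosphatase, rose by 3.19, Noct by 2.27 and Por by 1.10 on the log2 scale, and Wee1, a cell cycle kinase, fell by 1.06. In eWAT Gys2, the glycogen synthase of liver and fat, fell by 2.40, while Usp2 rose by 1.45, Lpin1 by 1.24 and Wee1 by 0.67. Wee1 thus passed in both tissues with opposite sign.

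Genes of pathways that can reset the clock were counted in the same way, to be read against the same shares of all genes that passed, 58.8% in liver and 23.9% in eWAT at 30 nmol/kg of BI 456906 and 48.2% and 14.9% with semaglutide at 100 nmol/kg. Of 9 cAMP response genes 6 rose and 0 fell in liver at 30 nmol/kg of BI 456906, with a median log2 fold change of 1.52. The largest were the early genes Nr4a1 (2.77) and Fos (2.49), the coactivator Ppargc1a (1.92) and the kinase Sik1 (1.72). With semaglutide at 100 nmol/kg 2 rose and 1 fell. In eWAT 1 of the 9 passed at 30 nmol/kg of BI 456906, Ppargc1a at 1.15. All 6 glucocorticoid response genes rose in liver, with Mt2 at 4.10, Tat at 2.84, Fkbp5 at 2.33 and Zbtb16 at 2.08, and all 6 also rose with semaglutide at 100 nmol/kg. In eWAT 5 rose, among them Fkbp5 (2.26), Zbtb16 (1.99), Tsc22d3 (1.31) and Mt2 (1.24). Of 7 temperature response genes 3 passed in liver, a smaller share than that of all genes, and these were the heat shock genes Hspa1a (−1.30), Hspa1b (−1.20) and Dnajb1 (−0.30), which fell. In eWAT Cirbp, a gene induced by cold, rose by 0.82, and Hsph1 (−0.53) and Hspa8 (−0.43) fell. The part of these pathways in the levels of the clock genes was not tested.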

How the data were processed

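RNA from liver and eWAT of 6 mice in each of 7 groups was sequenced, giving 42 libraries per tissue. Per the labels the authors used STAR 2.5.2b, RSEM 1.3.0, featureCounts 1.5.1 and FastQC 0.11.5 on the mouse build GRCm38. The deposited read tables hold a signal, the reads counted by the authors on each gene divided by 1 size factor per library, and dividing by each library's smallest step gave whole reads for 100% of the nonzero values (tolerance 0.01 reads). The deposited TPM tables, also made by the authors, served for levels. The labels and the paper describe different kits, and which applies to which tissue is not stated in the sources used here.

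The main test was limma/voom (limma 3.58.1, edgeR 4.0.16, R 4.3.3) on the deposited signal, in 1 fit per tissue over 7 groups, with TMM scaling, filterByExpr, a pseudocount of 0.5 and Benjamini-Hochberg adjustment over all genes tested. The recovered reads went into the edgeR quasi-likelihood test and DESeq2 1.42.0 as alternatives. The other alternatives were RLE factors, library size alone, no filter, at least 10 in every library, quality weights, limma on log2(TPM + 1) and log2(TPM + 0.1), and leaving out each library. Scaling within each tissue and the adipocyte marker covariate were added after the data were seen. Correlations used 100000 permutations within groups. A library is named by the number in its label, 1 to 42 in eWAT and 43 to 84 in liver, 6 per group, ordered as vehicle, the 4 rising doses of BI 456906 and the 2 of semaglutide. The labels do not say that the samples of a group are separate mice beyond their numbers, and no 2 of a group were copies (105 pairs per tissue, chi-square of their reads at least 13.3 times its degrees of freedom). The procedure was tested on simulated data.

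The genes named are the 10 members and, of each list, up to 4 that passed at 30 nmol/kg of BI 456906 with the largest change, and the 5 at each end of the likeness to the axis. Of these, 2 list genes are not reported here. Members and lists were chosen with earlier results of these data known. Gene positions are those of GENCODE M21, and promoters those of RefSeq. Counting error alone does not cover amplification, since the reads carry no molecular identifiers.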

Additional observations from a re-analysis of the deposited data

Results flagged for a closer look

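Among 140 sets of 6 libraries, a set being 1 gene in 1 group and tissue, 14 held a library that stood apart from the other 5 (a ratio above Dixon's 95% critical value, which chance gives in about 1 of 20 sets).
In eWAT, Arntl was 6.21 TPM in library 20 of the group given 20 nmol/kg of BI 456906, where the nearest was 9.01 TPM, and Dbp in the same library was 48.12 TPM (nearest 31.54). Arntl and Dbp thus stood apart in opposite directions in this library. In the same group Cry1 was 21.62 TPM in library 23 (nearest 18.15). Among vehicle libraries of eWAT, Cry1 was 16.39 TPM in library 2 (nearest 15.4) and Nr1d2 was 15.81 TPM in library 3 (nearest 20.39). Dbp was 26.27 TPM in library 33, given semaglutide at 20 nmol/kg (nearest 21.33), and Nr1d1 was 16.44 TPM in library 28, given 30 nmol/kg of BI 456906 (nearest 9.76).

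In liver, library 74, given semaglutide at 20 nmol/kg, stood apart for Nr1d2 at 15.26 TPM (nearest 10.82) and for Per3 at 4.29 TPM (nearest 2.88). Nr1d2 was 14.55 TPM in library 82, given semaglutide at 100 nmol/kg (nearest 9.71). At 10 nmol/kg of BI 456906 Arntl was 11.13 TPM in library 55 (nearest 12.71) and Cry1 was 32.73 TPM in library 60 (nearest 27.45). With vehicle, Dbp was 7.9 TPM in library 45 (nearest 9.67) and Nr1d1 was 3.2 TPM in library 43 (nearest 2.45).

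Of 60 tests of a difference between the tissues, 14 passed, and each is the log2 effect in eWAT minus that in liver. At 10 nmol/kg of BI 456906 it was 1.32 for Npas2, −0.80 for Per1 and −0.53 for Nr1d2. At 20 nmol/kg it was −0.47 for Nr1d2 and 0.72 for Dbp. At 30 nmol/kg it was −0.80 for Per1, −1.42 for Nr1d1, −0.44 for Nr1d2, 0.81 for Dbp and −2.51 for Ciart. With semaglutide it was −1.27 for Nr1d1 and −0.70 for Nr1d2 at 20 nmol/kg, and −1.64 and −0.74 at 100 nmol/kg.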

How the results depend on the processing

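The counts of passing genes against vehicle, the liver dose slopes, the liver compound comparisons and the tissue differences stayed within 1.5 times their value under the other settings listed above. The eWAT compound comparisons, 0 of 30 in limma/voom, gave 2 with library size alone, 2 with at least 10 in every library, 8 with quality weights, 1 in edgeR and 3 in DESeq2, and the eWAT dose slopes went from 5 to 3 with no filter. The cause was not tested. Of 85 calls of single genes 22 were lost under at least 1 alternative and 0 reversed. TPM with either pseudocount lost 13 each, no filter 12, library size 5 and quality weights 4. The other alternatives covered only part of the 85 calls. The adipocyte covariate, fitted in eWAT alone, lost 3 and kept 23, and scaling within tissues, for tissue differences alone, lost 2 and kept 12. EdgeR lost 2 and kept 69 and DESeq2 lost 1 and kept 70, since neither was run on the tissue differences. The within-group r of Arntl with Per2 in eWAT was −0.39 and, with the adipocyte sum held constant, 0.021.

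Without each library in turn the passing tests ranged from 29 to 34 (liver) and 16 to 24 (eWAT) against vehicle, 6 to 6 and 3 to 6 for slopes, 5 to 7 and 0 to 5 (5 without library 29) between compounds, and 11 to 20 between tissues. Calls kept without any 1 library were 37 of 45 in liver, 16 of 26 in eWAT and, scaled within tissues, 12 of 18 between tissues. Npas2 in eWAT at 30 nmol/kg of BI 456906 (FDR 0.0529) passed in 34 of 42 such fits. Few reads limit Ciart (29 in 1 liver library) and Npas2. No paired analysis was possible because each library carries a number of its own.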
